A study of Brachypodium distachyon with 8 samples.

Results

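Leaves of Brachypodium distachyon, a model grass, were compared after heat given by immersion in water and without stress. The members are the 3 small RNA libraries of this comparison, of 8 in the series: plants kept under water at 42 °C for 1 h, plants kept so for 3 h, and unstressed plants grown at 22 °C. All plants were of the diploid inbred line Bd21 and grew in soil under the same light cycle, and RNA was taken from leaves. The 5 other libraries, used below for comparison, are heat in air (42 °C, 1 h and 3 h), cold (4 °C, 6 h and 24 h) and salt, given as sodium chloride in the soil (48 h). Each condition has 1 library, so every difference lies between libraries, no replicate error exists, and no p-value is given. Both heat libraries are set against the same unstressed library. The labels give no unstressed plants kept in water at the growth temperature, so immersion and temperature cannot be told apart.

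A locus is 1 transcript identifier whose 3' UTR, the untranslated end of the transcript, carried small RNA reads. Of 30815 identifiers, 18191 from 13130 genes had 40 or more reads summed over the 8 libraries and were compared. None of the identifiers could be paired with a gene name, so loci are given by identifier and without a function.

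In plants, small RNAs of 21 nt include most microRNAs and are cut by Dicer-like enzymes from hairpin or double-stranded precursors, after which they guide Argonaute proteins to matching transcripts. Small RNAs of 24 nt are mainly the short interfering RNAs that direct DNA methylation at repeats and transposons. Reads of other lengths at a transcript end can also be pieces of the transcript itself, and the counts do not separate these kinds of molecule. In leaf RNA, fewer cells of a type and less RNA per cell cannot be told apart either.

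The libraries differed in how many loci carried reads. Reads at 3' UTRs numbered 1942169 after 1 h, 3461750 after 3 h and 3642238 in the unstressed library, and 557865, 1192045 and 367188 of these lay outside the 10 most abundant loci. Of the compared loci, 1305 were at 0 after 1 h, 149 after 3 h and 4462 without stress, and the median locus had 8, 20 and 3 reads. Levels were therefore scaled with TMM (trimmed mean of M values), which sets the bulk of loci equal, and a scaled read is a read at the size of the unstressed library. TMM and total reads differ by 1.83 and 2.16 on the log2 scale at 1 h and 3 h. Every locus is this much higher relative to unstressed if totals are used, so the directions below are relative to the bulk of loci.

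Over all loci, the mix of read lengths differed after heat. Reads of 30 to 33 nt were 30.3% of reads after 1 h and 15.3% after 3 h, against 3.78% without stress, while reads of 20 nt were 8.02% and 9.95%, against 40.8%. Reads of 24 nt were 9.57% and 10.3%, against 3.33%, and reads of 21 nt were 5.03% and 6.55%, against 6.19%. Most of this lay in few loci. Without the 10 most abundant, 30 to 33 nt reads were 6.37% and 4.29%, against 3.77%, and 20 nt reads 3.72% and 5.15%, against 9.55%. There, 24 nt reads were 30.2% and 26.0%, against 24.0%, and 21 nt reads were 9.43% and 11.0%, against 12.9%. The 24 nt share stood above unstressed at both times and the 21 nt share below it, outside the 95% intervals of counting error. Without the 100 most abundant loci the 24 nt share after 3 h was below unstressed, 33.8% against 38.3%, while the share after 1 h was 41.4%. The 21 nt share was still lower at both times, 10.9% and 11.7% against 18.2%.

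**Figure D1:**
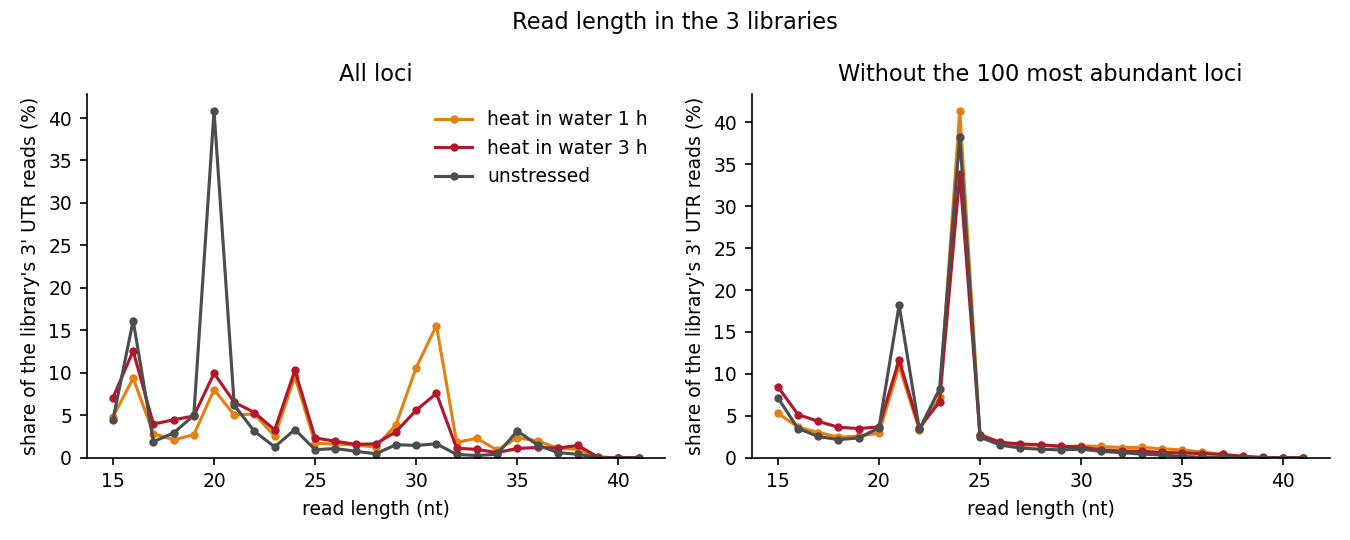
Share of 3' UTR reads (%) at each read length (nt) in the 1 h and 3 h libraries of heat in water and in the unstressed library, over all loci and without the 100 most abundant. The peak at 20 nt in the unstressed library and those at 30 and 31 nt after heat shrink once these loci are left out, and 24 nt is then the commonest length in all 3 libraries.

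Few loci carry those peaks, and they changed in different directions. At Bradi1g05790.1 there were 164938 and 304408 reads after 1 h and 3 h, 477474 and 236892 at the same times of heat in air, 1130920 and 173090 in the cold (6 h and 24 h), 104270 under salt, and 1602543 unstressed. The unstressed library is the highest of the 8, and the locus fell 18.4-fold at 1 h and 22.4-fold at 3 h relative to the bulk of loci. Its 20 nt reads fell more, 26.0-fold and 31.2-fold, than its 34 to 41 nt reads, 6.12-fold and 7.96-fold, so the 20 nt share of the locus was 57.7% and 58.5% after heat, against 81.4% unstressed. Bradi5g10760.1 carried reads mostly of 16 nt and was 9.62-fold and 12.5-fold lower, and Bradi4g27190.1, whose commonest length held at most 17.7% of its reads, was 6.98-fold and 6.92-fold lower.

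Bradi1g05760.1, also abundant, was 4.62-fold lower at 1 h and 11.2-fold at 3 h. The remaining abundant loci were not called lower at both times. Bradi2g13080.1 had 327797 and 266399 reads after heat in water and 34833 unstressed, with 31 nt the commonest length in each, and was 4.96-fold higher at 1 h and 1.80-fold at 3 h. At 3 h that is below the 2-fold used here, while with totals in place of TMM the locus was 17.6-fold and 8.05-fold higher. Bradi3g27270.1 had nearly the same counts, 324667 and 262957 after heat in water and 34136 unstressed, and may hold the same reads. Bradi4g12040.1 kept its length: 96.8% and 96.7% of its reads were 22 nt after heat, against 96.7% unstressed. Its scaled level was 1.04 times unstressed at 1 h and 0.513 times at 3 h, and with totals in place of TMM it was 3.71 and 2.30 times.

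A locus was called where its whole 95% interval lay beyond 2-fold. At both times 312 loci from 207 genes were higher after heat in water, which is 1.72% of the loci compared, and 275 loci from 202 genes were lower, 1.51%. Taken by itself, 1 h had 585 loci (3.22%) higher and 450 (2.47%) lower. The 3 h library by itself had 715 (3.93%) higher and 546 (3.00%) lower. In 3 loci the call was higher at 1 h and lower at 3 h, in 2 the reverse, and 16487 were called at neither time. With libraries scaled by total reads, 4212 loci were higher and 16 lower at both times, so 99.6% of calls were then higher.

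The calls depend on depth. With 0 reads after heat, a lower call needed 6 unstressed reads at 1 h and 4 at 3 h, which 6587 and 8750 loci had. With 0 unstressed reads, a higher call needed 16 reads at 1 h and 34 at 3 h. Loci without a call are therefore not shown to be unchanged. In each library a count of 2 was commoner than a count of 1, with 64030 entries of 2 and 25077 of 1 after 3 h, for example. Reads may thus have been counted in pairs or single copies dropped. With counts halved, 146 loci were higher and 190 lower.

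The higher loci were mostly bare of reads without stress. The rule favours this, since it asks for fewer scaled reads unstressed than in heat. Of the 312 loci, 188 had 0 unstressed reads, against 4462 of the 18191 loci compared. The list summed to 45017 reads after 1 h, 79233 after 3 h and 933 unstressed, or 2.32%, 2.29% and 0.0256% of the library. With a 0 set at a floor of 3 counts, the median locus was 8.70-fold higher at 1 h (25th to 75th percentile 4.22 to 16.2) and 8.43-fold at 3 h (4.52 to 15.7). The level was at least 4-fold higher at both times in 222 loci and at least 16-fold in 56. Between the 2 times, 3 h stood above 1 h beyond 2-fold at 8 of the 312 loci, or 2.56% against 2.11% of all loci compared, and below it at 28, or 8.97% against 2.13%.

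Reads at the higher loci were short or spread over many lengths. The commonest length was 15 to 19 nt at 184 of 312 loci after 1 h and 239 of 312 after 3 h, against 50 of the 124 with unstressed reads. Over all loci compared with reads, this held for 28.9%, 38.3% and 27.1%. The unstressed lengths of the list rest on 933 reads in all. Pooled over the list, reads of 15 to 19 nt were 41.7% and 48.4% after heat, against 53.2% unstressed. The mean share per locus was 32.5% and 40.6%, against 35.5%, so a shift of these loci to shorter reads is not shown. The 24 nt reads that are commonest at 42.6% and 41.1% of all loci after heat led at 42 and 33 of the 312. Where a higher locus had 100 or more reads, its single commonest length held a median of 9.82% of its reads at 1 h (83 loci) and 12.9% at 3 h (157 loci). Over all compared loci of that depth the medians were 61.2% (738 loci) and 55.6% (1792 loci). Only 4 and 6 of the higher loci had 1 length with more than 50% of the reads, against 60.6% and 56.2% of all loci. The rule for the list did not use read length, and whether these reads are pieces of transcripts was not tested.

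Bradi2g19540.1 shows this spread. It had 461 and 662 reads at the 2 times of heat in water, 1791 and 2054 after heat in air, 4 and 7 after cold, 0 under salt and 2 unstressed. All 4 heat libraries stand far above the 4 others. The locus was 122-fold higher at 1 h (33.5 to 1007) and 77.7-fold at 3 h (21.4 to 643), and its commonest length, 16 nt, held 8.03% and 12.1% of its reads.

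The other locus named, Bradi4g09120.2, was higher in water than in air. It had 760 and 3964 reads after heat in water, 634 and 603 after heat in air, 101 and 42 after cold, 13 under salt and 10 unstressed. The rise was 40.1-fold at 1 h (21.7 to 83.9) and 93.1-fold at 3 h (50.6 to 194). Without stress 80.0% of its reads were 24 nt, while after heat no length held more than 8.00%. Other identifiers of the gene differ. Bradi4g09120.3 had 881 and 3209 reads, against 211 unstressed, and a scaled level 2.20 and 3.57 times unstressed. Bradi4g09120.1 had 342 and 258 reads, against 226, and a scaled level 0.798 and 0.268 times unstressed. Up to 5356 of the 6127 reads of Bradi4g09120.2 over the 8 libraries can be shared with Bradi4g09120.3. The direction thus differs between identifiers of 1 gene.

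The lower loci, chosen by an unstressed level above that in heat, held most of the unstressed library. Their reads summed to 584658 after 1 h and 1156050 after 3 h, against 3176833 unstressed, or 30.1% and 33.4% of the library, against 87.2%. The 10 with most reads account for 97.5%, 97.2% and 98.8% of these sums. The median fall was 5.52-fold at 1 h (25th to 75th percentile 4.39 to 10.1) and 6.39-fold at 3 h (4.10 to 11.2), 189 loci were 4-fold or more lower at both times, and 13 were 16-fold or more. After heat 27 of the 275 were at 0 at 1 h and 7 at 3 h. Between the times, 3 h was called above 1 h at 5 of the 275 (1.82%) and below it at 7 (2.55%), near the shares of all loci.

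The lengths at the lower loci also differed between the libraries. The commonest length was 21 nt at 25 of 248 loci with reads after 1 h and 41 of 268 after 3 h, against 75 of 275 unstressed. For 24 nt the counts were 116, 110 and 79 of the same loci. Over all compared loci with reads, 21 nt was commonest at 8.86% and 8.93% after heat, against 14.3% unstressed. For 24 nt this was 42.6% and 41.1%, against 37.7%, so the directions were the same over all loci. A locus of this list had on average 10.6% and 13.2% of its reads at 21 nt after heat, against 22.5% unstressed. Over all compared loci the averages were 8.93% and 9.37%, against 13.5%, so the 21 nt share was lower after heat there as well. Where a lower locus had 100 or more reads, its single commonest length held a median of 61.1% and 60.2% after heat (45 and 87 loci). The unstressed median was 75% (107 loci), and the loci that reach this depth differ between libraries. Over all compared loci of that depth the medians were 61.2% and 55.6% after heat and 59.2% unstressed, so the values after heat are not particular to this list.

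Bradi1g29090.1 had 23 and 65 reads after heat in water, 100 and 101 after heat in air, 1687 and 904 after cold, 283 under salt and 366 unstressed. Cold and salt libraries stand above the 4 heat libraries, also after scaling. The locus fell 30.2-fold at 1 h (19.8 to 48.2) and 24.0-fold at 3 h (18.4 to 31.7). Its unstressed reads were 82.2% of 23 nt, and its reads of 22 and 23 nt numbered 6 and 11 after heat, against 310, a fall of 98.0-fold and 120.0-fold. After heat no length held more than 18.5% of its reads.

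**Figure D2:**
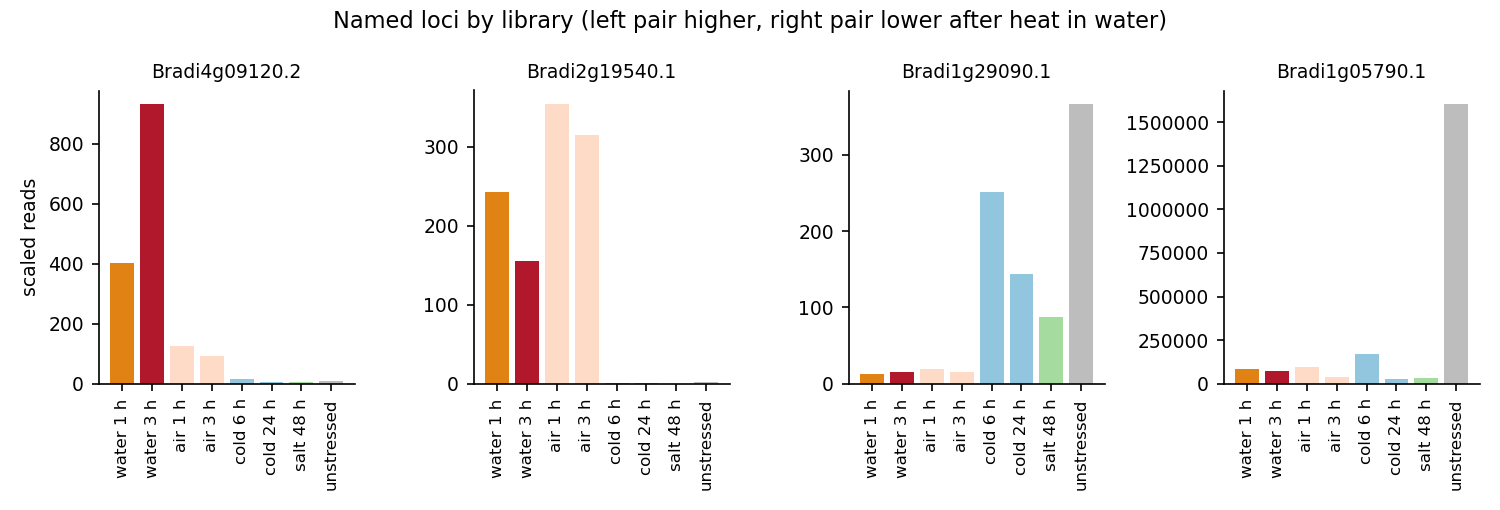
Scaled reads (linear axis from 0, 1 panel per locus) of Bradi4g09120.2, Bradi2g19540.1, Bradi1g29090.1 and Bradi1g05790.1 in each of the 8 libraries. Both heat in water bars stand above the unstressed bar at the first 2 loci and below it at the last 2, where the unstressed bar is the highest of the 8.

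The lists were then set beside the 5 other stressed libraries, which leaves the unstressed counts out of these ratios. Both lists were chosen with the same heat in water counts. That choice by itself raises the shares given below for either list, so they are a description and not separate support. The scaled median of the 312 higher loci was 24.26 and 23.5 after heat in water, 15.9 and 16.3 after heat in air, 3.65 and 3.81 after cold, 10.2 under salt and 0 unstressed. Of these loci, 69.2% (216 loci) were also higher at both times than after 6 h of cold, against 4.61% of all loci compared. For 24 h of cold this was 63.5% (198), against 4.23%, and for salt 34.3% (107), against 1.48%. Against heat in air, 6.09% (19) were higher than at 1 h, against 0.583% of all loci, and 4.49% (14) than at 3 h, against 0.715%. With libraries scaled by totals, the 14 became 1 and the 198 became 118. The medians scaled by totals were 86.3 and 105.2 after heat in water and 63.4 and 96.3 after heat in air. They were 21.4 and 35.0 after cold, 69.5 under salt and 0 unstressed, so salt then lay above 1 h of heat in air. With TMM scaling the higher loci thus stood high in all 4 heat libraries, and most were not called between water and air.

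The lower loci gave another picture. Their scaled median was 11.1 and 11.7 after heat in water, 15.0 and 12.6 after heat in air, 15.5 and 15.2 after cold, 13.3 under salt and 77.0 unstressed. The choice of these loci favours a high unstressed median. With this scaling the 7 stressed medians lie close together and the unstressed one stands apart. With libraries scaled by totals it does not: the medians were then 39.4 and 52.6 after heat in water, 59.9 and 74.1 after heat in air, 90.7 and 140.02 after cold, 90.5 under salt and 77.0 unstressed, and heat in water was lowest. Of the 275 loci, 13.1% (36) were lower at both times than after 6 h of cold, against 1.29% of all loci, 10.9% (30) than after 24 h, against 1.29%, and 4.73% (13) than under salt, against 1.18%. Against heat in air, 10.5% (29) were lower than at 1 h, against 0.671% of all loci, and 2.55% (7) than at 3 h, against 0.627%. With totals these counts were 66, 98 and 44 for 6 h of cold, 24 h of cold and salt, and 29 for 3 h of heat in air. Some of the lower loci thus stood below other stressed libraries as well, while most were called against the unstressed library and not against these. For that majority, a change under stress and a property of the 1 unstressed library cannot be told apart.

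**Figure D3:**
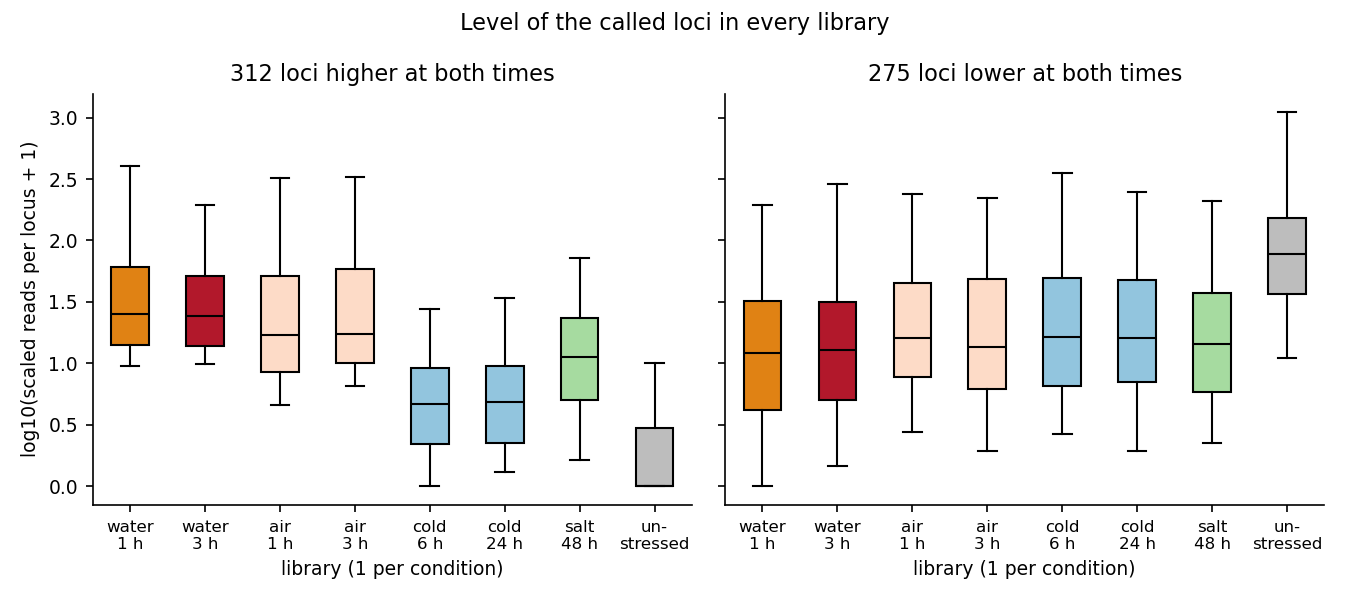
Scaled reads per locus, on a log10(value + 1) axis, of the loci called higher (left) and lower (right) at both times in each of the 8 libraries. Boxes give the 25th, 50th and 75th percentile over loci and whiskers the 5th and 95th. With TMM scaling the higher loci have medians of 15.9 or more in the 4 heat libraries and 0 unstressed, and the lower loci have medians between 11.1 and 15.5 in the 7 stressed libraries and 77.0 unstressed.

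Counting each length on its own gave a different split for 21 nt than for the other lengths. Of 3537 loci with 40 or more reads of 21 nt, 231 from 151 genes (6.53%) were lower at both times and 27 (0.763%) higher. On 24 nt reads 119 of 8295 loci (1.43%) were lower and 38 (0.458%) higher, and on 22 and 23 nt reads 85 of 4640 (1.83%) and 35 (0.754%). Reads of 15 to 19 nt gave near equal counts, 102 lower (1.35%) and 113 higher (1.50%) of 7543. On 20 nt reads 27 of 779 loci (3.47%) were lower and 17 (2.18%) higher. Among reads of 25 to 29 nt these were 53 (1.91%) and 51 (1.84%) of 2779, and among reads of 30 to 33 nt 24 and 24 (2.25% each) of 1068. On reads of 34 to 41 nt the balance turned, with 8 of 425 lower (1.88%) and 25 higher (5.88%).

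The shares of lower calls are larger in every class among loci with enough unstressed reads for a lower call at both times. Of these, 17.6% of 1312 were lower on 21 nt reads, 13.3% of 203 on 20 nt, 13.1% of 183 on 30 to 33 nt, 13.1% of 61 on 34 to 41 nt, 12.5% of 425 on 25 to 29 nt, 9.56% of 1067 on 15 to 19 nt, 8.79% of 967 on 22 to 23 nt and 3.88% of 3064 on 24 nt. The 21 nt share is still the highest, and the 24 nt share is the lowest in place of the 15 to 19 nt share. With libraries scaled by total reads, 245 loci were higher and 41 lower on 21 nt, and these 41 were most of the 75 lower calls over all length classes.

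**Figure D4:**
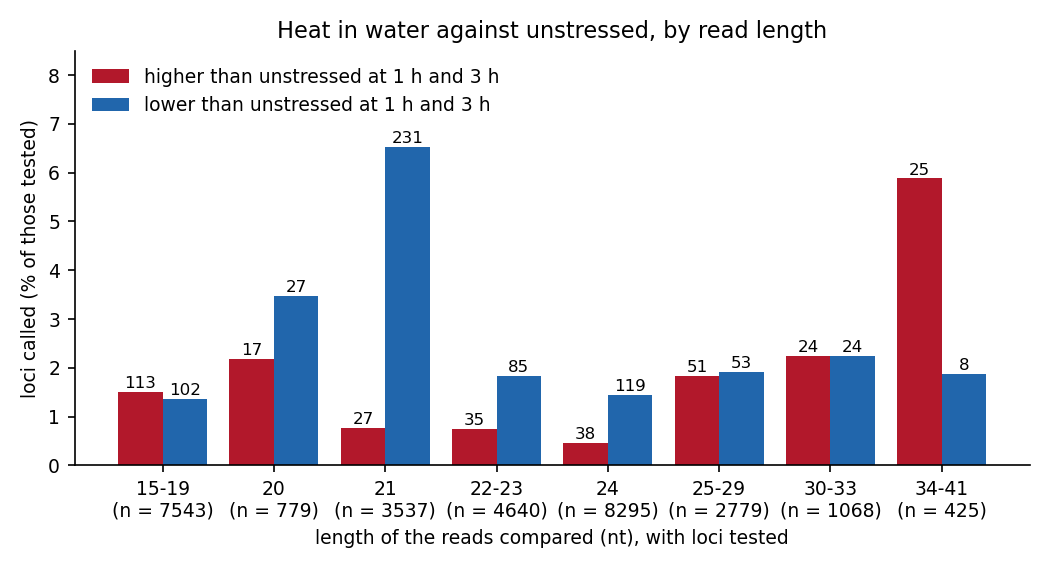
Share of loci (%) called higher and lower at both times, heat in water against unstressed, for each class of read length (nt), with the number of loci called above each bar and the number tested below it. Lower calls peak at 21 nt, at 6.53%, and higher calls at 34 to 41 nt, at 5.88%.

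The loci that were lower on 21 nt had a scaled median of 1.58 and 2.11 reads of 21 nt after heat in water, 3.55 and 2.45 after heat in air, 4.77 and 3.81 after cold, 2.48 under salt and 31.0 unstressed. After heat in water 30 of the 231 were at 0 at 1 h and 17 at 3 h. All 7 stressed medians are low and the unstressed one is high with this scaling. The loci were chosen by unstressed 21 nt levels above those in heat in water, so a high unstressed median is built in. Over all 3537 loci tested on 21 nt the medians were 2.11 and 2.35 after heat in water and 2.37 and 1.99 after heat in air. They were 2.53 and 2.38 after cold, 1.86 under salt and 4 unstressed. With libraries scaled by totals the medians were 5.63 and 9.47 after heat in water, 14.2 and 14.5 after heat in air, 27.9 and 35.0 after cold, 16.8 under salt and 31.0 unstressed, so that heat in water was lowest and 24 h of cold was above unstressed. With TMM, 332 (9.39%) and 379 (10.7%) of the 3537 loci were lower than unstressed at 1 h and 3 h of heat in water. Lower calls numbered 408 (11.5%) and 561 (15.9%) after heat in air. They numbered 359 (10.1%) and 443 (12.5%) after cold, and 521 (14.7%) under salt. Higher calls on 21 nt were fewer in all 7 libraries, from 1.22% under salt to 3.36% after 6 h of cold. All of these comparisons share the unstressed library. A loss of 21 nt reads under stress and a property of that library cannot be told apart. With loci admitted by their reads in the 5 other stressed libraries, an alternative chosen after the data were seen, 201 of 2869 were lower on 21 nt at both times.

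Most 21 nt calls had no 24 nt call beside them. Of the 231 loci, 209 could be compared on 24 nt reads, where 20 were lower too, or 9.57% against 1.43% of all loci, and 3 were higher, or 1.44% against 0.458%. On 20 nt or on 22 and 23 nt, 29 of the 231 were also lower. Over all loci tested, lower calls were 3.47% on 20 nt and 1.83% on 22 and 23 nt. The 231 loci hold 167 distinct count profiles, so part of them repeat the same reads, and 139 were not lower on all reads together. Bradi2g41830.1 had 1 and 2 reads of 21 nt after heat in water, 5 and 31 after heat in air, 201 and 16 after cold, 15 under salt and 128 unstressed. It fell 243-fold at 1 h (42.8 to 9661) and 273-fold at 3 h (73.9 to 2275). Over all lengths this locus had 56 and 99 reads, against 163 unstressed, and its commonest length was 24 nt after heat, at 64.3% and 66.7%, and 21 nt without stress, at 78.5%.

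Bradi1g62460.1 and Bradi4g44350.1 were the first loci in each direction on 24 nt. Bradi1g62460.1 had 222 and 524 reads of 24 nt after heat in water, 740 and 1142 after heat in air, 1218 and 1062 after cold, 338 under salt and 6 unstressed. It was 19.5-fold higher at 1 h (8.82 to 53.7) and 20.5-fold at 3 h (9.36 to 56.1), and all 7 stressed libraries stood above the unstressed one. Bradi4g44350.1 had 4 and 7 reads of 24 nt after heat in water, 337 and 6 after heat in air, 6 and 9 after cold, 1 under salt and 117 unstressed. It fell 55.5-fold at 1 h (21.1 to 207) and 71.2-fold at 3 h (33.5 to 181). Scaled, heat in air for 1 h had 66.5, against 117 unstressed, and the 6 other stressed libraries had 2.11 or less.

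Many of the loci called higher on short or long reads had no such reads without stress. Of the 113 loci higher on 15 to 19 nt, 77 had 0 such reads unstressed (68.1%, against 38.4% of all loci tested on this class), and their scaled median was 27.4 and 28.7 after heat in water, 28.8 and 24.34 after heat in air, 1.49 and 2.06 after cold, 4.34 under salt and 0 unstressed. Of the 25 higher on 34 to 41 nt, 18 had 0 unstressed (72%, near the 61.9% of all loci tested). Their medians were 44.8 and 20.0 after heat in water, 19.7 and 11.3 after heat in air, at most 0.62 in the cold and salt libraries, and 0 unstressed. Both sets were high in heat and low in cold. Bradi1g66470.1 had 455 and 913 reads of 15 to 19 nt after heat in water, 1326 and 2108 after heat in air, 16 and 28 after cold, 14 under salt and 0 unstressed. With the 0 unstressed reads set at a floor of 3 counts, it was 80.0-fold higher at 1 h and 71.5-fold at 3 h. The lower ends of the intervals were 64.8-fold and 58.0-fold.

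Some loci rose in many lengths at once. Of the 312 higher loci, 49 were called higher in 2 or more of the 8 length classes and 6 in all 8, while 196 were called in none. Of the 275 lower loci, 64 were called lower in 2 or more classes, 2 in all 8 and 42 in none, and 51 were called on 21 nt and no other class. Among all 18191 loci compared, 175 were higher and 519 lower in 1 or more classes. Calls in 2 or more classes were not counted over all loci, so the 49 and 64 have no such background. The class calls reuse the reads that put loci in the lists, so overlap is built in. A class was tested only with 40 or more reads of it, so a locus called in none may not have been tested. Bradi5g02040.1 was first among higher loci on 20, 21 and 22 to 23 nt. Its 21 nt reads numbered 79 and 131 after heat in water, 123 and 194 after heat in air, and 0 in the cold, salt and unstressed libraries. With the 0 unstressed reads set at a floor of 3 counts, that is 13.9-fold higher at 1 h and 10.3-fold at 3 h. The lower ends of the intervals were 11.0-fold and 8.22-fold. Reads were listed in all 4 heat libraries and in none of the 4 others. In contrast, Bradi4g07590.1 was lower on its 15 to 19 nt reads, which numbered 0 and 8 after heat in water, 6 and 10 after heat in air, 42 and 40 after cold, 0 under salt and 128 unstressed. It was 80.9-fold lower at 1 h, with the 0 set at 3 counts, and 68.1-fold lower at 3 h. The intervals for this fall began at 64.9-fold and 33.6-fold.

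Length shares within a locus do not depend on how libraries are scaled. They could be compared at 311 loci from 220 genes with 100 or more reads in each of the 3 libraries. The class of the commonest length was the same in all 3 libraries at 232 of them, or 74.6%. At 37 it was the same at both heat times and another unstressed, and in 26 of these it was 24 nt after heat. In 10 of those 26 it was 21 nt unstressed. The median 24 nt share over the 311 loci was 39.3% and 31.0% after heat, against 28.8% unstressed, and the median 21 nt share was 5.61% and 6.89%, against 8.15%. The 5 other stressed libraries had median 21 nt shares of 5.51% to 6.31%. Their median 24 nt shares were 37.0% to 48.6%, all above unstressed and above 3 h of heat in water. A higher 24 nt share was thus not particular to heat in water.

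Larger shifts within a locus were counted next. A class share moved by 20 or more percentage points in the same direction at both times, with intervals that did not overlap, at 33 loci from 21 genes. The 24 nt share was higher at 9 loci (2.89%) and lower at 4 (1.29%). For 21 nt, the share was higher at 0 loci and lower at 9 (2.89%), from 5 genes. In the other classes these counts were 4 (1.29%) and 3 (0.965%) for 15 to 19 nt, 0 and 2 (0.643%) for 20 nt, 0 and 3 (0.965%) for 22 to 23 nt, 0 and 4 (1.29%) for 25 to 29 nt, 0 and 1 (0.322%) for 30 to 33 nt, and 1 (0.322%) and 0 for 34 to 41 nt. Without the size limit but with intervals apart, the 24 nt share was higher at 44 loci and lower at 14, and the 21 nt share higher at 10 and lower at 26.

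At Bradi2g51470.1 the leading length changed from one class to another. The 24 nt share was 79.1% after 1 h (71.0% to 85.7%) and 63.8% after 3 h (57.7% to 69.6%), against 24.8% unstressed (17.3% to 33.6%). The 21 nt share was 1.55% and 15.8%, against 62.4%. The locus had 129 and 265 reads after heat and 117 unstressed, and its scaled level was 0.581 and 0.532 times unstressed, or 2.07 and 2.38 times with totals in place of TMM. It was not called on all reads.

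At Bradi1g71800.2, with 243 and 331 reads after heat and 110 unstressed, the 24 nt share was 64.2% and 55.0%, against 12.7%, and the 15 to 19 nt share was 15.6% and 28.7%, against 52.7%. In the other direction, Bradi3g59630.1 had 50% and 13.1% of its reads at 24 nt, against 74.1%. At 3 h 56.3% of its reads were 21 nt, against 9.26% unstressed, while after 1 h the 21 nt share was 13.3%. Of the 4 loci with a lower 24 nt share, 3 are identifiers of this gene. The fourth, Bradi3g34450.1, had 48.9% and 28.1%, against 73.6%, and its reads of 22 and 23 nt were 24.4% and 21.1%, against 6.25%.

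**Figure D5:**
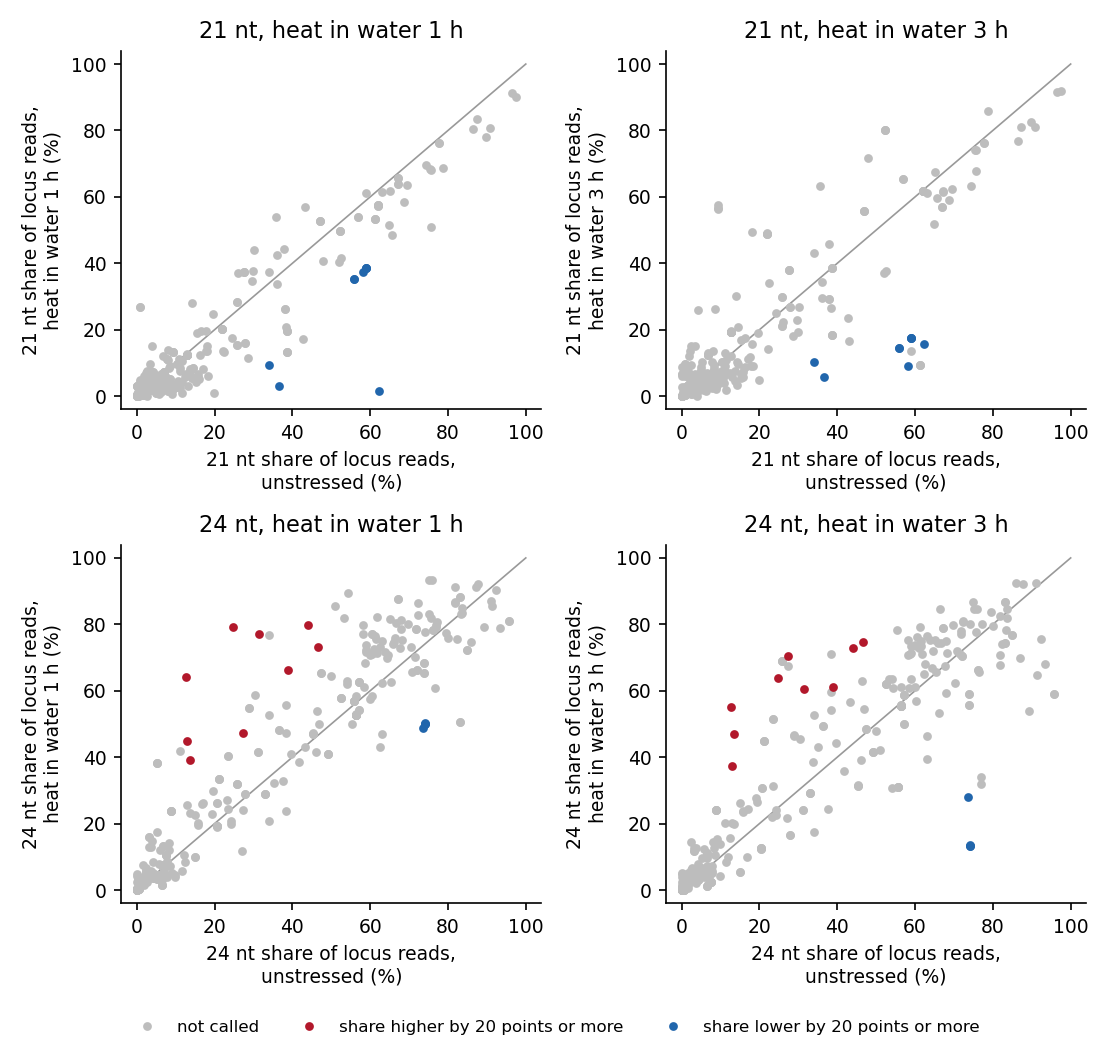
Share of a locus's reads (%) that are 21 nt (top) or 24 nt (bottom), after 1 h (left) and 3 h (right) of heat in water on the vertical axis and unstressed on the horizontal axis, for 311 loci. Most loci lie near the line of equal shares. Coloured points moved by 20 points or more in the same direction at both times, with 9 loci lower for 21 nt, and 9 higher and 4 lower for 24 nt, and identifiers of 1 gene can overlie each other.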

How the data were processed

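Per the file headers, the deposited values are raw counts of small RNA reads per 3' UTR identifier and read length, from 15 to 41 nt, and no column was left unused. Libraries were made with 2 kits that the labels do not tie to a library. The submitters' processing notes name CASAVA, bedtools 2.10.0 and Bowtie 0.12.7. How strand and reads with several positions were treated, and the genome build, is not stated in these sources. A read can be counted at several identifiers, and 4317 identifiers have counts identical to another.

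Loci with 40 or more reads over 8 libraries were kept. TMM factors came from edgeR 4.0.16 under R 4.3.3 (trims of 30% and 5%, unstressed as base), which was used for scaling only. Ratios and exact (Clopper-Pearson) 95% intervals were computed in Python 3.11.15 (scipy 1.17.1, pandas 2.3.3, numpy 2.4.6), figures with matplotlib 3.10.9. Intervals and floors (3 counts) hold counting error alone, since amplification copies molecules. A call needed the whole interval beyond 2-fold. The rule was tested on simulated counts that held counting error alone, without replicate error or reads shared between identifiers. Changes were placed only at loci with enough expected unstressed reads, so the test does not cover loci near 0 unstressed. Named loci are the 2 in each direction at both times, with reads in all 3 libraries, whose weaker interval bound lay farthest from no change, the first by that bound in each direction per length class, reads or not, the 2 in each direction with the largest shift of 24 nt share, and the 10 most abundant. Of 31335 RefSeq genes, 0 matched an identifier, so lists by gene function could not be run. Members and lists were chosen with earlier results of these data known. Scaling, filter, fold, halved counts, identifiers per gene and read length were varied.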

Additional observations from a re-analysis of the deposited data

Results flagged for a closer look

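At 5 loci the calls at 1 h and 3 h of heat in water pointed in opposite directions, and these loci were chosen after their values were seen. Each time is 1 library, so beyond the counting interval of the ratio of 3 h to 1 h the difference was not tested. At 3 loci the level was higher than unstressed at 1 h and lower at 3 h, and in each of the 3 libraries the length with most reads was 24 nt. Bradi3g46780.1 had 300 and 51 reads at 1 h and 3 h, against 42 unstressed, and its ratio of 3 h to 1 h was 0.0757. Bradi1g09120.1 had 269 and 66 reads, against 49, with a ratio of 0.109. Bradi3g03840.1 had 312 and 79 reads, against 62, with a ratio of 0.113. At the 2 others the order was reversed. Bradi2g15310.1 had 10 and 313 reads, against 24, and a ratio of 13.9 (7.48 to 29.4). Bradi2g42650.1 had 2 and 346 reads, against 26, and a ratio of 77.0 (21.2 to 639).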

How the results depend on the processing

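Scaling by totals gave 4212 higher and 16 lower loci at both times, 5340 and 8757 were called at 1 h and 3 h, and 3914 over the length classes (on 21 nt 245 higher and 41 lower). Beyond 4-fold these counts were 134, 76, 331, 372 and 369 (7 and 94). With counts halved 146 loci were higher, 525 and 634 were called at 1 h and 3 h, and 568 over the classes, with 7 higher on 21 nt. On 20 to 24 nt reads 103 loci were higher and 230 lower (30.9% higher), with 635 and 688 called at each time. With 1 identifier per gene 199 were higher. Median-of-ratios scaling gave 310 higher and 275 lower loci, merging identical identifiers 294 and 240, and TMM over all identifiers, added after the data were seen, 334 and 255. The 21 nt shares at 1 h, 3 h and unstressed were 9.43%, 11.0% and 12.9% without the 10 most abundant loci, 10.9%, 11.7% and 18.2% without 100, and 4.88%, 6.35% and 6.09% with identical identifiers merged. The 24 nt shares were 30.2%, 26.0% and 24.0%, then 41.4%, 33.8% and 38.3%, then 9.0%, 9.83% and 3.13%. Loci with a shifted length numbered 90 at 50 reads, 5 with a stricter read minimum, 73 at 10 points and 7 at 30 points. With total scaling, an alternative added after the data were seen, 1 and 118 of the higher loci stood above 3 h of heat in air and 24 h of cold, and 29, 66, 98 and 44 of the lower ones below 3 h of heat in air, 6 h and 24 h of cold and salt. Bradi4g09120.2, Bradi2g19540.1, Bradi1g29090.1 and Bradi1g05790.1 kept their direction under every alternative that gave a ratio. Scaling by totals turned others: Bradi2g06470.1 was 0.327 and 0.801 times unstressed at 1 h and 3 h and 1.16 and 3.59 times with totals, and Bradi3g13900.1 was 0.331 and 0.932 times and 1.18 and 4.17 times. Among others it also turned Bradi2g51470.1, Bradi3g34450.1, Bradi3g59630.1 and, at 3 h, Bradi4g12040.1 and Bradi1g71800.2. The causes were not tested. Bradi2g19540.1 had no unstressed read of 20 to 24 nt and so no ratio there. No paired analysis was possible because each condition has 1 library.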
